A study of Mus musculus with 102 samples.

Results

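Gene expression in epidermal stem cells of aged mice on control diet was compared between the end and the start of the light phase as zeitgeber time (ZT) is usually defined, ZT12 against ZT0. This comparison was chosen with earlier results of these data known. The members were defined by their labels, as all mice 83 to 97 weeks old on the control diet collected at these times. They are 8 arrays, 4 at ZT12 and 4 at ZT0, of a series with 53 arrays of adult and 49 of aged mice, each of a separate sample labelled with its own replicate number. Every group, ZT0 included, was C57B6/J and carried the Per1-Venus BAC transgene, in which the Per1 clock gene drives a fluorescent protein. The control diet was eaten ad libitum for 25 weeks after an adaptation of 3 weeks. The groups set beside them were adult mice of 47 to 57 weeks on the same diet (4 arrays at each of the 2 times) and aged mice on calorie restriction (CR), whose food lay 30% under the ad libitum intake (5 arrays at ZT0 and 4 at ZT12). The other 16 arrays of aged mice on control diet came from ZT4, ZT8, ZT16 and ZT20. Each collection day served a single time point and the labels do not give an array's day, so day and time cannot be told apart. The light schedule and the way the stem cells were isolated are not given in the sources used here.

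The clock of a mammalian cell is a feedback loop. The activators CLOCK, NPAS2 and BMAL1 (gene Arntl) switch on the repressor genes Per, Cry and Nr1d and the output factors Dbp, Tef and Hlf, and the repressors then shut the activators down. In mouse epidermis, the loop runs in step with the daily timing of DNA synthesis and division in the basal layer, where the stem cells sit on the basement membrane.

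Promoter windows from RefSeq (build GRCm38.p6, from 250 bases before to 50 after the annotated start) are printed here for 5 genes, because each carries a short motif tied in textbooks to its group. The motifs were searched on both strands. They were the E-box CACGTG (bound by CLOCK and BMAL1), the D-box TTATGTAA (bound by DBP, TEF and HLF), the ROR element (AGGTCA preceded by AANT), the E2F site (TTTGGCGC or TTTCGCGC) of S-phase genes and the CHR element TTTGAA of mitotic genes. Capitals mark the matches, and no match of 1 motif overlapped a match of another in these windows. The first is the window of Per3 (chr4:151044616-151044915, minus strand), with 2 D-boxes that begin 205 and 158 bases before the start, and the second is a window of Tef (chr15:81802423-81802722, plus strand), with an E-box 127 bases before it. The third is a window of Arntl (chr7:113207261-113207560, plus strand), with a ROR element in the bases after the start. Mcm6 (chr1:128359656-128359955, minus strand) carries 3 E2F matches, of which those beginning 110 and 106 bases before the start overlap each other. Ccnb2 (chr9:70421505-70421804, minus strand) carries 2 CHR elements, the farther at 167 bases before the start. Mcm6 and Ccnb2 were chosen after the motif counts had been seen.
Per3: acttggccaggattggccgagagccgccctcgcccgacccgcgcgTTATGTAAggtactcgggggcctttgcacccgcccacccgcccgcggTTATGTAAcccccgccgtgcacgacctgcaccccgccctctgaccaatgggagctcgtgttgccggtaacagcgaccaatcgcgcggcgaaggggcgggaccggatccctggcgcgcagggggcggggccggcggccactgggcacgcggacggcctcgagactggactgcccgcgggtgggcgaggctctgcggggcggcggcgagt
Tef: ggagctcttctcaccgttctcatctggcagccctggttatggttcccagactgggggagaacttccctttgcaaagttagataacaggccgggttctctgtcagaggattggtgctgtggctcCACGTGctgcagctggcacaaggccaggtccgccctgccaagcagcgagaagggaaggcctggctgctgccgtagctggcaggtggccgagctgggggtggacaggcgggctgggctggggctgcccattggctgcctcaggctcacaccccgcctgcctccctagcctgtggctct
Arntl: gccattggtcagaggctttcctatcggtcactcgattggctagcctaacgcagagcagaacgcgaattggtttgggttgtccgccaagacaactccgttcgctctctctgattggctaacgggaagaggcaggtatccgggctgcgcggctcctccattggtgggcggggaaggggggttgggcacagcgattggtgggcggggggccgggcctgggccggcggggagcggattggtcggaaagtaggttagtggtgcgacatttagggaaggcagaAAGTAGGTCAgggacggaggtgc
Mcm6: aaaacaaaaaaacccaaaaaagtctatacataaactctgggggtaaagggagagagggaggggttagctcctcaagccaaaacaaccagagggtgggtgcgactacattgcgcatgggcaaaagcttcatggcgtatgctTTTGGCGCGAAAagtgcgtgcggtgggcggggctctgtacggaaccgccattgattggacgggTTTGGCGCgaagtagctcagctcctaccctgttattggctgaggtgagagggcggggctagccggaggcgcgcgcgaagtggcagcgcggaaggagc
Ccnb2: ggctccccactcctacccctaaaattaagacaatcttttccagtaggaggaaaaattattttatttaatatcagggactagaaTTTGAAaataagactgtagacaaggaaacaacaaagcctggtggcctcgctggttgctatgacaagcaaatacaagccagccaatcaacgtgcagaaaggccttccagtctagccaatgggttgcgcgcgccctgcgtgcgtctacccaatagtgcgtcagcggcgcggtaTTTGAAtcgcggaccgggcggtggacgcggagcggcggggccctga
Of 32851 windows of this length in the table, 7.15% hold the E-box, 0.938% the D-box, 0.219% the ROR element, 0.813% the E2F site and 17.9% the CHR element. The E2F site stood in 10 of 26 windows of DNA replication genes (10 of 22 genes in the table) and the CHR element in 16 of 21 windows of mitosis genes (15 of 20 genes). Among the core clock repressors Ciart, Cry1 and Per1 held an E-box, and the Dbp window held none of the 5 motifs. The printed clock windows are not typical of their groups. The D-box stood in 1 of 6 repressor genes (Per3) and the E-box in 1 of 4 clock output genes (Tef). The ROR element stood in 1 of 5 activator genes (Arntl), in 1 of its 2 windows. These matches are descriptions of letters, not of binding.

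Values are log2 expression levels, and a difference of 1 on this scale is a doubling. Of 17097 genes, 13383 were bright enough to test. At a Benjamini-Hochberg adjusted p under 0.05 in limma, 423 genes were higher at ZT12 (3.16% of those tested) and 266 were lower (1.99%), 689 in all (5.15%). At an unadjusted p under 0.05 there were 2360. The median difference over all tested genes was 0.02. Changes of more than 2-fold numbered 61 up and 96 down. The 4 ZT12 arrays lay wholly above or wholly below the 4 ZT0 arrays in 607 of the 689 called genes, against 16.7% of all genes tested (9.17% with ZT12 above and 7.52% with ZT12 below).

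The arrays at ZT12 varied more than those at ZT0 (root mean square SD 0.253 against 0.184). Replicate 1 of ZT12 lay nearest to ZT0 on the first principal component and its mean correlation across genes was 0.983 with the ZT0 arrays and 0.98 with the other 3 ZT12 arrays, and replicate 3 lay farthest away. Without replicate 1 of ZT12 the count of higher genes was 666. It was 271, 253 and 159 without replicates 1, 2 and 3 of ZT0, and 230, 158 and 230 without replicates 2, 3 and 4 of ZT12. The count of lower genes was 135, 83 and 157 without replicates 2, 3 and 4 of ZT0 and 76 and 99 without replicates 3 and 4 of ZT12. With each array centred on its median, 414 genes were higher and 142 lower, so 74.5% of the calls were rises, against 61.4% as deposited. The higher level of Xist over Y-linked genes, which marks female samples, was seen in 2 of 4 arrays of each group. These were replicates 2 and 4 at both times.

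The repressor arm of the clock was higher at ZT12. Of 8 tested core clock repressors, 6 rose (Per1, Per2, Per3, Cry2, Nr1d2 and Ciart) and none fell, with a median difference of 1.23 over the 8. Per3, a period gene, measured 5.72, 5.85, 6.14 and 5.66 in the ZT0 arrays and 8.88, 9.20, 8.88 and 9.29 in the ZT12 arrays. Every ZT12 value stood above every ZT0 value, and the difference was 3.22 (SE 0.32, 9.32-fold, adjusted p = 1.84e-12). Other probe sets of Per3 gave smaller rises, and the mean over all of them rose by 1.495. Per2, whose protein holds the repressor complex together, measured 6.05, 5.97, 5.98 and 5.82 at ZT0 and 7.75, 8.31, 7.72 and 8.15 at ZT12. The groups did not overlap, and the difference was 2.03 (SE 0.19, 4.08-fold, adjusted p = 7.65e-14). Nr1d2, the nuclear receptor REV-ERB beta that silences Arntl, rose by 1.5 (SE 0.21, adjusted p = 4.17e-07), from 8.17 ± 0.25 to 9.67 ± 0.16 (SD, n = 4 each).

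Cry2 rose from 7.35 ± 0.15 to 8.61 ± 0.12 and Ciart, a repressor that binds BMAL1, from 6.42 ± 0.02 to 7.62 ± 0.23 (SD, n = 4 each). Per1, the gene on which the reporter is built, rose least of the 6, by 1.05 (SE 0.24, adjusted p = 0.00359). Its arrays read 8.44, 8.77, 8.05 and 8.11 at ZT0 and 9.37, 9.56, 9.03 and 9.60 at ZT12. Whether its probe set also reads transcripts of the transgene was not tested. Cry1 went the other way without passing the test, at 7.15 ± 0.28 at ZT0 and 6.07 ± 0.37 at ZT12 (SD, n = 4 each; difference -1.09, 95% interval -1.81 to -0.37, adjusted p = 0.0598). It passed in 7 alternatives, among them the fit of the 24 aged control arrays (adjusted p = 0.0478) and that of the 8 arrays alone (0.00893). Bhlhe40 was not past the threshold either (-0.35, adjusted p = 0.563). Bhlhe41 was too dim to test, and Nr1d1 was not analysed here. The count of 6 was the same with any of the 8 arrays left out.

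The output factors of the PAR-bZIP family moved with the repressors. Dbp measured 6.07, 5.72, 5.79 and 5.88 at ZT0 and 9.07, 8.51, 8.77 and 8.73 at ZT12. All ZT12 arrays were far above all ZT0 arrays, by 2.90 on average (SE 0.31, 7.49-fold, adjusted p = 3.53e-11). Tef had the smallest error of the 3 and the lowest p, with 7.96, 7.72, 7.77 and 7.75 at ZT0 and 9.45, 9.53, 9.43 and 9.74 at ZT12 (1.74, SE 0.15, adjusted p = 1.08e-14). Hlf rose by 1.26 (SE 0.19, adjusted p = 5.36e-06). Nfil3, listed with them but not a PAR-bZIP factor, is a repressor that competes for the D-box. It read lower at ZT12 without passing (9.21 ± 0.13 at ZT0, 8.31 ± 0.48 at ZT12, SD, n = 4 each, adjusted p = 0.0563). Nfil3 passed in 9 alternatives, among them those without replicate 1 (adjusted p = 0.0436) or replicate 2 (0.0376) of ZT12.

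Of 5 tested core clock activators, Arntl fell and the others did not pass. Arntl measured 9.74, 8.61, 9.30 and 8.77 at ZT0. At ZT12 it measured 8.40, 7.89, 5.72 and 5.97, all under the ZT0 range, with replicates 3 and 4 the lowest. The difference was -2.11 (SE 0.46, 4.32-fold lower, adjusted p = 0.00229). Npas2 differed by -0.48 (SE 0.16, adjusted p = 0.0509), with no overlap of the groups. A second, dimmer probe set of Npas2 gave -2.17, and the mean of its probe sets passed the test at -1.328. The 3 probe sets of Clock that were bright enough disagreed in sign (-0.25, 0.13 and 0.33), and none passed. Rora (0.30, adjusted p = 0.253) and Arntl2 (0.23, adjusted p = 0.51) did not pass. None of the 4 clock regulators tested, the kinases Csnk1d and Csnk1e, the ubiquitin ligase part Btrc and the deubiquitinase Usp2, was called.

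**Figure D1:**
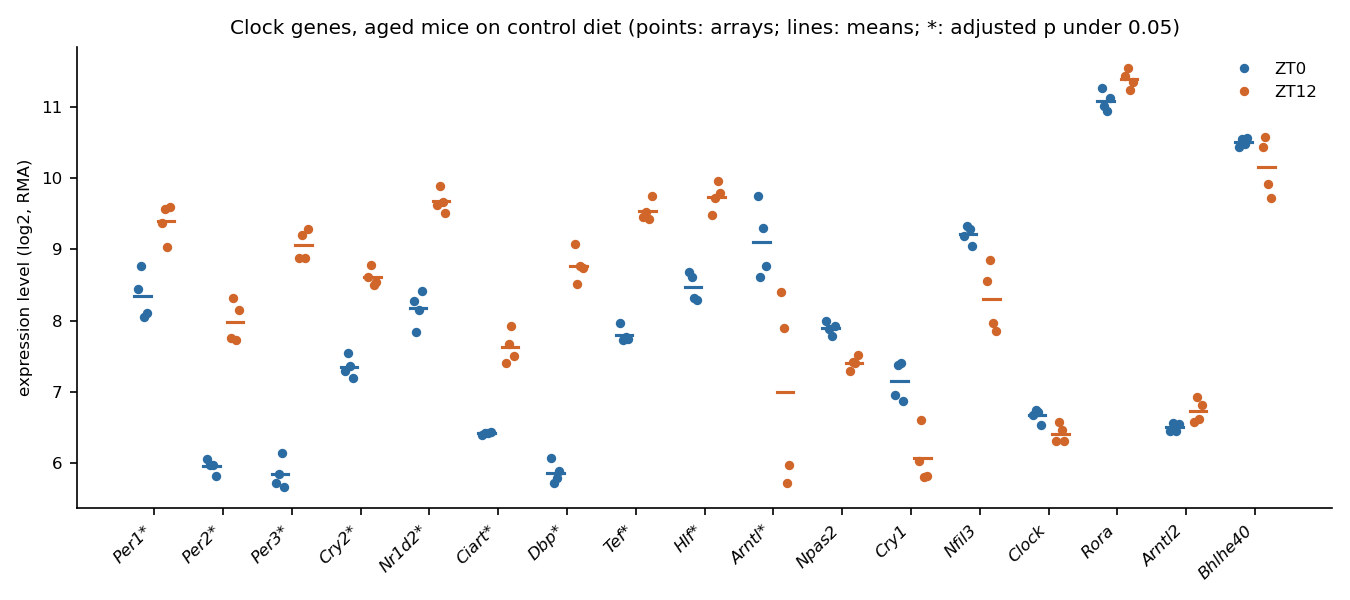
Expression level (log2, RMA) of 17 clock genes in each of the 4 ZT0 and 4 ZT12 arrays of aged mice on control diet, with group means as bars and an asterisk at genes with an adjusted p under 0.05. The ZT12 points of Per3 (8.88 to 9.29) and Dbp (8.51 to 9.07) lie clear of their ZT0 points, while Arntl at ZT12 spreads from 5.72 to 8.40.

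Sphk2, which encodes a sphingosine kinase, had the largest rise of all named genes. It measured 6.40, 6.35, 6.30 and 6.59 at ZT0 and 10.17, 10.15, 10.06 and 10.44 at ZT12, a difference of 3.79 (SE 0.33, 13.9-fold, adjusted p = 4.88e-15). The Sphk2 locus overlaps that of Dbp by 741 bases on chromosome 7. Its other probe set did not rise (-0.24, unadjusted p = 0.467), and the mean of both differed by 1.778. Which transcript the brighter probe set reads was not tested, so its values are given for the probe set and not for the gene.

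Genes of DNA replication were higher at ZT12 as a group. Of 27 tested members, 20 rose and none fell, 26 differences were above 0 and the median was 0.87, beside a median of 0.02 and 3.16% higher calls over all genes. The rises covered all 7 tested subunits and partners of the MCM family (Mcm2 to Mcm7, the replicative helicase, and Mcm10), Gins1, Gins2 and Gins4 of the GINS complex that joins it, primase (Prim1), polymerase epsilon and delta (Pole, Pole2, Pold1), the clamp loader (Rfc3, Rfc4, Rfc5), Lig1, Rpa2 and the histone chaperone part Chaf1b. Mcm2 measured 7.18, 7.71, 7.75 and 7.97 at ZT0 and 9.28, 9.13, 9.21 and 9.30 at ZT12. The ZT12 arrays agreed closely and all stood over 1 unit above the highest ZT0 array (difference 1.58, SE 0.29, 2.98-fold, adjusted p = 0.000274). Gins2 measured 8.38, 8.47, 8.43 and 8.66 at ZT0 and 9.53, 9.86, 10.20 and 9.59 at ZT12, a rise of 1.31 (SE 0.20, adjusted p = 7.48e-06). Mcm6, whose window with the E2F matches is printed above, rose by 1.22 (SE 0.20, adjusted p = 1.60e-05) and Prim1 by 0.97 (SE 0.17, adjusted p = 0.000112).

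The members that did not pass were Cdt1 (0.55), Pola1 (0.60), Fen1 (0.36), Pcna (0.25), Cdc45 (0.21), Gins3 (0.03) and Orc1 (-0.10). Pcna, the sliding clamp, was already at 10.78 ± 0.01 at ZT0 and measured 11.04 ± 0.15 at ZT12 (SD, n = 4 each; adjusted p = 0.406). Cdc6 was too dim to test. With any 1 of the 8 arrays left out, the list's count of rises was between 14 and 19.

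Genes that feed or license S phase were also among the rises. Of 10 tested genes on the nucleotide synthesis list, 5 rose and none fell, beside 3.16% higher calls over all genes. The 5 were Rrm1, Tyms, Paics, Uhrf1 and Ung, of which Uhrf1 and Ung do not make nucleotides. Paics, an enzyme of purine synthesis, rose by 0.69 (SE 0.11, adjusted p = 1.14e-05), Tyms, thymidylate synthase, by 0.84 (SE 0.20, adjusted p = 0.00527) and Rrm1, the large subunit of ribonucleotide reductase, by 0.80 (SE 0.18, adjusted p = 0.00353). Tyms stood at 0.26 and did not pass in the mean of its probe sets. Of 18 G1 and S regulators, 5 rose and none fell (Ccnd1, Ccnd2, Cdk2, Cdk4 and E2f1), and the list's median was 0.06, beside the same 3.16%. Cyclin D1, Ccnd1, measured 10.65, 10.29, 10.48 and 10.52 at ZT0 and 11.25, 11.21, 11.31 and 11.37 at ZT12, a rise of 0.80 with a narrow error (SE 0.09, adjusted p = 5.87e-10). Cyclin D2, Ccnd2, rose by 0.86 (SE 0.17, adjusted p = 0.000489). E2f1, the transcription factor that drives S-phase genes, rose by 0.54 (SE 0.13, adjusted p = 0.00544).

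Of 18 DNA repair genes, 5 rose and none fell, beside 3.16% higher calls over all genes. Chek1, the checkpoint kinase of stalled forks, measured 5.22, 5.62, 5.50 and 5.34 at ZT0 and 6.67, 6.61, 6.84 and 6.72 at ZT12 (1.29, SE 0.20, adjusted p = 7.48e-06). Rad50 (0.93) and Atm (0.82), which sense double-strand breaks, rose as well, and so did Brca1 and Xpc. The nucleotide list gave 3 calls without replicate 1 or 3 of ZT0 or replicate 3 or 4 of ZT12, and the repair list gave 3 without the same arrays. The G1 and S list gave 3 without replicate 2 of ZT0 or replicate 2 or 3 of ZT12.

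Mitotic genes did not follow the replication genes. Of 24 tested, 22 had differences below 0, none rose, and Ccnb2 fell, beside 1.99% lower calls over all genes. The list's median was -0.42. Ccnb2, a cyclin of the mitotic kinase CDK1, measured 6.73, 7.0, 7.43 and 7.58 at ZT0 and 6.24, 6.09, 6.47 and 5.89 at ZT12 (difference -1.01, SE 0.29, adjusted p = 0.0274). Its call was lost without replicate 3 (adjusted p = 0.116) or 4 (0.0943) of ZT0 or replicate 2 (0.064) or 4 (0.102) of ZT12. Cenpa, the centromeric histone, stood at -0.91 (adjusted p = 0.133), Kif11, a spindle motor, at -0.82 (adjusted p = 0.0837) and Mki67 at -0.55 (adjusted p = 0.151), none past the threshold. In the fit of the 8 arrays alone 10 mitosis genes were lower, and with median centring none was.

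**Figure D2:**
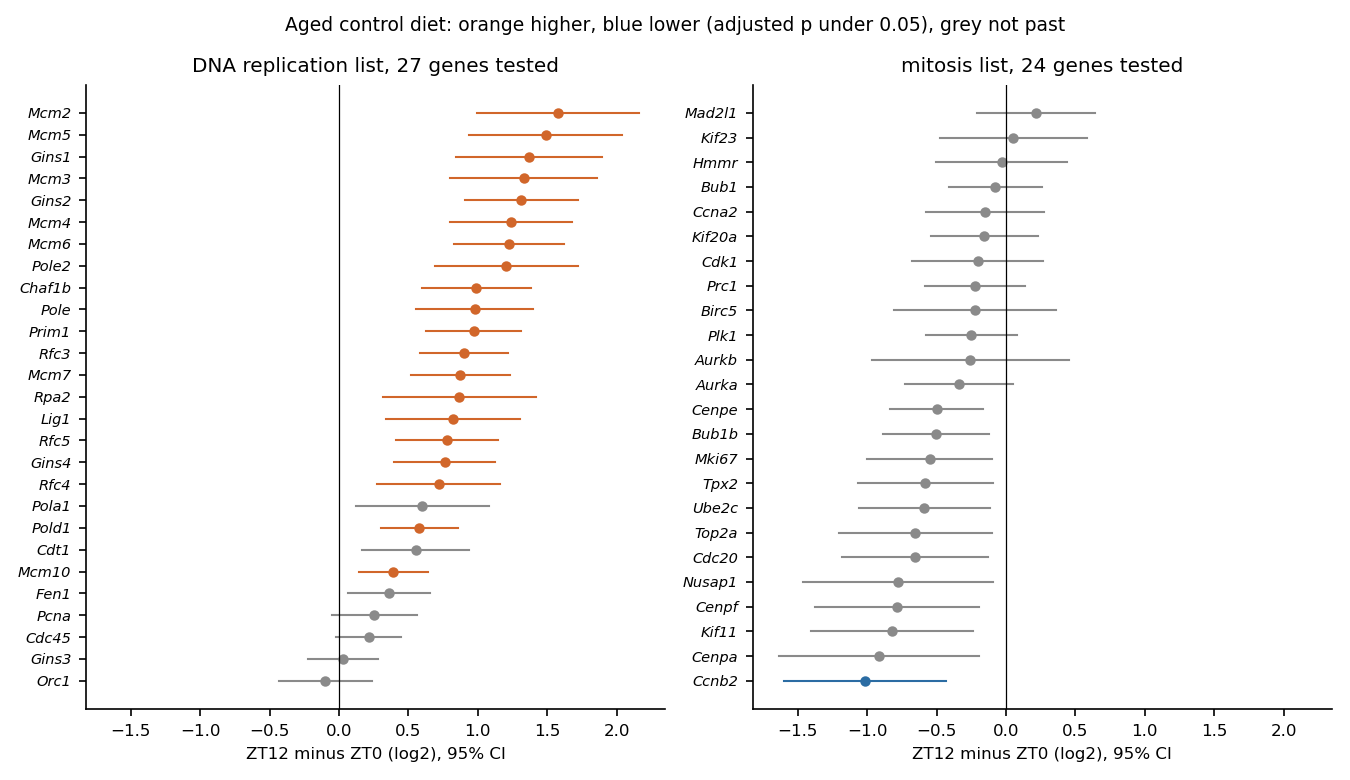
Difference between ZT12 and ZT0 (log2, points) with its 95% interval (bars) for the 27 tested DNA replication genes and the 24 tested mitosis genes of aged mice on control diet. In the left panel 26 points lie above 0 and 20 are called, while in the right panel 22 lie below 0 and Ccnb2 is the single call.

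Of 12 tested glucocorticoid target genes, 4 rose (Tsc22d3, Fkbp5, Per1 and Zbtb16) and none fell, with a median of 0.22, beside 3.16% higher calls over all genes. Tsc22d3, which encodes the glucocorticoid-induced leucine zipper, measured 7.33, 7.70, 7.0 and 7.0 at ZT0 and 8.86, 9.34, 9.63 and 10.05 at ZT12 (2.21, SE 0.29, 4.63-fold, adjusted p = 4.51e-08). Fkbp5, a chaperone of the glucocorticoid receptor, measured 6.83, 6.23, 6.55 and 6.72 at ZT0 and 8.08, 8.39, 8.53 and 8.97 at ZT12 (1.91, SE 0.37, adjusted p = 0.000457). In both genes the ZT12 arrays all lay more than 1 unit above the ZT0 arrays. Not all targets moved: Dusp1 (0.11), Klf9 (0.33), Mt1 (0.13) and Sgk1 (-0.36) did not pass. Zbtb16 rose by 1.11 (SE 0.35, adjusted p = 0.0427), and the count of 4 was 3 when any 1 array other than replicate 3 of ZT12 was left out. Txnip, an inhibitor of thioredoxin and of glucose uptake, was among the 12 largest rises, at 10.17, 10.58, 10.02 and 10.30 against 11.27, 11.99, 11.88 and 12.01 (1.52, SE 0.24, adjusted p = 8.74e-06).

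The 12 largest falls included Cldn4 of the tight junction and adhesion list and Krt16 of the keratinocyte stress list. Of 14 tested tight junction and adhesion genes, 4 fell (Cldn4, Ocln, Cdh1 and Jup), none rose, and the median was -0.23, beside 1.99% lower calls over all genes. Cldn4, a claudin of tight junctions, measured 7.73, 9.37, 9.44 and 10.20 at ZT0 and 6.48, 7.07, 5.17 and 4.88 at ZT12. The groups did not overlap although both spread widely, and the difference was -3.28 (SE 0.65, 9.74-fold lower, adjusted p = 0.000602). Cdh1, E-cadherin, fell by 0.70 (SE 0.17, adjusted p = 0.00808). Dsp, which encodes the desmosomal protein desmoplakin, stood at -0.04 and did not pass. The list gave 2 calls without replicate 2 of ZT0 or replicate 4 of ZT12, and 1 without replicate 3 of ZT0 or replicate 3 of ZT12.

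Of 10 tested genes of keratinocyte stress and migration, 5 fell (Krt6a, Krt16, Sprr1a, Sprr1b and Plaur) and none rose, with a median of -0.64, beside the same 1.99%. Krt16, a keratin of wounded and hyperproliferative epidermis, measured 10.23, 10.75, 10.57 and 11.19 at ZT0 and 9.36, 9.53, 8.24 and 6.94 at ZT12 (-2.17, SE 0.64, adjusted p = 0.0305). The ZT12 arrays lay below the ZT0 range, replicate 4 by far the most. Plaur, the urokinase receptor, fell by 0.68 (SE 0.18, adjusted p = 0.0158). Itgb6, an integrin subunit of migrating keratinocytes, was on the list of integrins and basement membrane and fell by 2.19 (SE 0.52, adjusted p = 0.00535), while Dst, which anchors keratins to hemidesmosomes, rose by 0.34. The stress list gave no calls without replicate 3 of ZT0, replicate 3 of ZT12 or replicate 4 of ZT12, 1 without replicate 4 of ZT0 2 without replicate 2 of ZT0, and 1 in the fit of the 24 aged control arrays. The call of Dst was lost without replicate 3 of ZT0 (adjusted p = 0.112) or replicate 4 of ZT12 (0.0991).

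Of 16 cholesterol synthesis genes, 4 fell (Idi1, Sqle, Fdft1 and Cyp51), none rose, and 15 differences were below 0 (median -0.52), beside 1.99% lower calls over all genes. Sqle, squalene epoxidase, measured 7.57, 8.47, 8.47 and 7.89 at ZT0 and 6.94, 6.80, 6.62 and 5.81 at ZT12 (-1.56, SE 0.48, adjusted p = 0.0385). Fdft1, squalene synthase, fell by 0.66 (SE 0.17, adjusted p = 0.00899). The count rested on single arrays: it was 0 without replicate 2 or 3 of ZT0 or replicate 4 of ZT12, 1 without replicate 4 of ZT0 or replicate 2 or 3 of ZT12, and 0 in the fit of the 24 aged control arrays. Of 19 genes of the unfolded protein response, 4 fell (Hsp90b1, Xbp1, Atf4 and Ddit3), Herpud1 rose, and 18 differences were below 0 (median -0.39), beside 1.99% lower and 3.16% higher calls over all genes. Ddit3, the transcription factor CHOP, measured 8.61, 8.99, 8.88 and 9.36 at ZT0 and 8.23, 8.44, 7.92 and 7.99 at ZT12 (-0.81, SE 0.16, adjusted p = 0.000894). Atf4, the factor upstream of it, fell by 0.65 (SE 0.17, adjusted p = 0.0115). The Atf4 call was lost in the fit of the 24 aged control arrays (adjusted p = 0.107) and without replicate 4 of ZT12 (0.0738). Chac1, a glutathione-degrading target of ATF4, fell by 2.31 (SE 0.37, adjusted p = 9.67e-06), from 5.92, 6.93, 7.20 and 7.82 to 4.77, 4.69, 4.71 and 4.45. Its ZT12 mean of 4.65 lay under the filter level of 4.735, and the gene was tested through its higher ZT0 arrays, so its ZT12 level is at the floor of the measurement. The response list gave 2 lower calls without replicate 2 of ZT0 or replicate 3 or 4 of ZT12, and 8 in the fit of the 8 arrays alone. The call of Herpud1 was lost without replicate 3 of ZT0 (adjusted p = 0.107) or replicate 4 of ZT12 (0.0729).

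Elsewhere single genes passed, beside 3.16% higher and 1.99% lower calls over all genes. In metabolism these were Ppara, the nuclear receptor of fatty acid oxidation (0.94, adjusted p = 0.00456), Gpam, the first enzyme of triglyceride synthesis (0.62, adjusted p = 0.04), the mitochondrial superoxide dismutase Sod2 (0.62, adjusted p = 0.00463) and, lower, the glutathione peroxidase Gpx2 (-0.47, adjusted p = 0.0362). In signalling Bmp4 (0.87, adjusted p = 0.0193) and the Notch modifier Lfng (0.95, adjusted p = 0.0181) rose, and Fzd7, a Wnt receptor (-1.21, adjusted p = 0.00399), and Smad7, an inhibitor of TGF-beta signalling (-0.85, adjusted p = 0.0462), fell. Fatty acid oxidation and lipid synthesis each gave 1 higher call of 12 tested, and the Notch list 1 of 10. Antioxidant defence gave 1 higher and 1 lower of 15, TGF-beta and BMP targets 1 and 1 of 14. The Wnt list, with Ccnd1, gave 1 higher and 1 lower of 10. Such counts are too small for a statement about a list. Of 15 innate and inflammatory genes, 2 fell, beside 1.99% over all genes: Defb6, a beta-defensin (-1.70, adjusted p = 0.034), and Tnf (-0.69, adjusted p = 0.0482). No gene passed among 14 of glycolysis, 19 of oxidative phosphorylation (16 above 0, median 0.19), 10 of heat shock, 15 immediate early genes, 11 of the interferon response and 13 of autophagy and lysosome. With at least 1 array left out the calls of Ppara, Gpam, Gpx2, Bmp4, Lfng, Smad7, Defb6 and Tnf were lost, at adjusted p of up to 0.0637, 0.227, 0.148, 0.0977, 0.0863, 0.211, 0.147 and 0.15 over all alternatives, in that order. The call of Tnf was lost with each of the 8 arrays left out, and those of Defb6 and Gpx2 with 6 of them. Gpam, Bmp4, Lfng and Smad7 lost theirs with 5, and Ppara with 1.

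**Figure D3:**
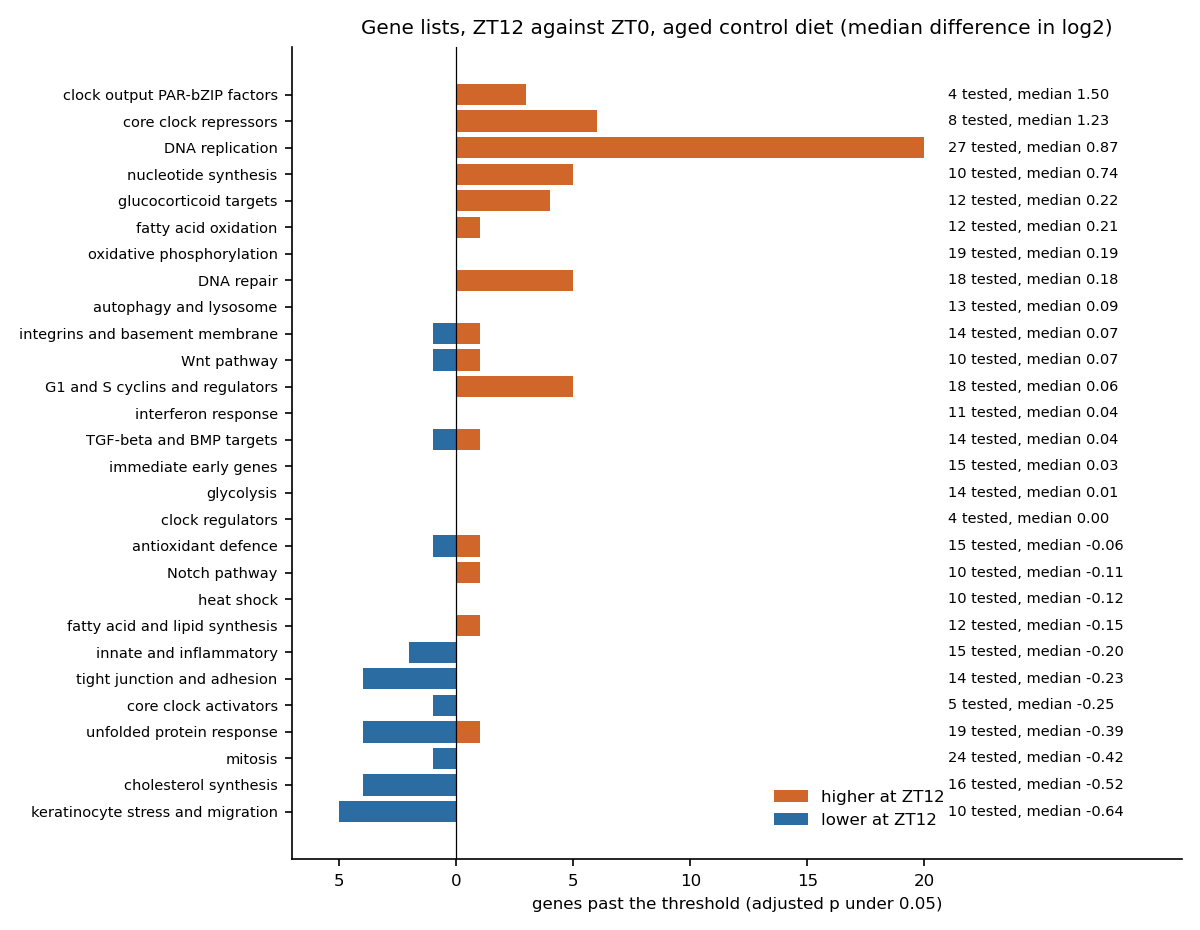
Number of tested genes called higher (orange, to the right) or lower (blue, to the left) at ZT12 in each of the 28 pathway lists, with the number tested and the median difference in log2 written beside each bar. DNA replication has the longest bar (20 higher of 27), and keratinocyte stress and migration (5 lower of 10) the lowest median, -0.64.

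Among the other largest changes were Slfn9 of the Schlafen family (1.51, SE 0.20, adjusted p = 6.05e-08), the orphan receptor Gpr146 (1.5, SE 0.38, adjusted p = 0.00882) and Abtb2. Abtb2 measured 7.52, 7.98, 8.53 and 8.32 at ZT0 and 5.16, 5.2, 5.21 and 4.85 at ZT12, a fall of 2.98 (SE 0.53, 7.91-fold lower, adjusted p = 0.000119). The ZT12 arrays lay close together near the filter level of 4.735. As the mean of all probe sets of a gene, the differences were smaller by over 1.5 times for Abtb2 (-1.923), Pde4b (-1.277), Gpr146 (0.9154), Fkbp5 (1.108), Chek1 (0.7221), Rad50 (0.5) and Atf4 (-0.3949), and larger for E2f1 (0.8738), all still past the threshold. Stx11, a syntaxin of vesicle fusion, fell by 2.44 (SE 0.48, adjusted p = 0.000669). The nuclease Dnase1l3 (-2.11, SE 0.46, adjusted p = 0.00246), the phosphodiesterase Pde4b (-2.01, SE 0.44, adjusted p = 0.00248) and Fam43a (-2.04, SE 0.47, adjusted p = 0.00393) fell too. So did Nipal1 (-2.40, SE 0.71, adjusted p = 0.0308) and Cpeb2, an mRNA-binding protein (-2.02, SE 0.55, adjusted p = 0.0187). Gpr146 was not past the threshold without replicate 3 of ZT0 (adjusted p = 0.0519). Cpeb2 was lost without replicate 2 (adjusted p = 0.0675) or 3 (0.0844) of ZT0 or replicate 3 (0.131) or 4 (0.0629) of ZT12. Nipal1 was lost without replicate 2 (0.0706), 3 (0.103) or 4 (0.0606) of ZT0 or replicate 3 (0.0909) or 4 (0.194) of ZT12.

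The labelled cell type was checked against markers. All 7 basal epidermis markers (Krt5, Krt14, Krt15, Itga6, Itgb4, Col17a1 and Trp63) were bright, with a mean level of 11.56 to 11.78 in the ZT0 arrays and 11.74 to 11.91 in the ZT12 arrays. Trp63, the master factor of the basal layer, rose by 0.44 (adjusted p = 0.0183). Of the 10 tested differentiation markers 8 had differences below 0 (median -0.18), Tgm3 rose (1.06) and Calml3 fell (-1.17). Markers of the upper follicle and sebaceous gland averaged 7.89 to 8.69 at ZT0 and 7.55 to 8.14 at ZT12, all 7 tested differences were below 0, and Krt79 fell (-1.81, adjusted p = 0.0284). Of 6 tested bulge markers Sox9 (-1.65, adjusted p = 0.00808) and Cxcl14 (-0.68, adjusted p = 0.0282) fell, while Cd34, Lgr5, Lhx2 and Tbx1 were below the filter. Markers of T cells averaged 5.67 to 5.80 at ZT0 and 5.59 to 5.76 at ZT12 and none was called. Of 10 tested Langerhans and myeloid markers Epcam fell (-0.93, adjusted p = 0.00951), and Cd207 and Lyz2 were below the filter. Of 9 tested hair shaft and matrix markers 7 had differences below 0 and Krt25 fell. None of the markers of melanocytes, fibroblasts, endothelium, muscle, fat, red cells or Merkel cells was called. Beside these marker calls stand 3.16% higher and 1.99% lower calls over all genes. With so few markers a list, single calls are not read as a change of a cell type. The part of the follicle markers in the falls of junction, stress and cholesterol genes was not tested, and in bulk samples fewer cells of a type and less RNA per cell cannot be told apart.

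The 16 arrays of the other 4 times were used to ask whether the same genes differed between the times next to ZT12 and the times next to ZT0. ZT8 and ZT16 were set against ZT4 and ZT20, with no array shared with the comparison above. Here 26 genes were higher (0.194%) and 2 lower (0.0149%) at an adjusted p under 0.05 in limma, and 1231 passed at an unadjusted p under 0.05. Of the 423 genes higher at ZT12, 385 (91%) were also higher at ZT8 and ZT16, against 49.6% of all genes, and 20 were called. These 20 were 4.73% of the 423 and 76.9% of the 26. Of the 266 lower genes, 203 (76.3%) were lower, against 50.4% of all genes, and 1 was called (0.376% of the 266 and 50% of the 2). No gene was called in opposite directions. Median differences were 0.19 for the 423 and -0.11 for the 266, against 0.68 and -0.86 between ZT12 and ZT0.

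Genes differed in how their change was spread over the day. Dbp, Tef, Per2 and Mcm2 passed the test in the 16 arrays too: ZT8 and ZT16 lay above ZT4 and ZT20 by 1.59 (adjusted p = 1.62e-06) in Dbp, 0.92 (9.63e-09) in Tef, 0.81 (0.000121) in Per2 and 1.03 (0.00616) in Mcm2. Mcm2 stood at 7.65, 7.30, 8.92, 9.23, 8.46 and 8.02 at ZT0, 4, 8, 12, 16 and 20, highest at ZT12. In Tsc22d3, Fkbp5, Txnip and Abtb2 the difference between those times was 0.30, 0.00, 0.07 and 0.13, none past the threshold, and their ZT0 mean lay outside the range of the means of the 5 other times. ZT0 against ZT4 and ZT20 gave 343 called genes (2.56%), 225 higher (1.68%) and 118 lower (0.882%) at ZT0, and used the ZT0 arrays again, so it is set beside the first comparison as a description only. ZT0 minus ZT4 and ZT20 was -2.31 for Tsc22d3 (adjusted p = 1.01e-10), -2.19 for Fkbp5 (1.58e-06), -1.70 for Txnip (8.06e-09) and 3.06 for Abtb2 (3.09e-06). Abtb2 stood at 8.09 at ZT0 and between 4.89 and 5.21 at the 5 other times, close to the filter level. Chac1 lay under that level at all 5, so its times other than ZT0 were not compared. ZT12 against ZT8 and ZT16 gave no called gene in limma, and 406 at an unadjusted p under 0.05. Of the 266 lower genes 124 were also called at ZT0 against ZT4 and ZT20, and of the 423 higher genes 67, against 2.56% of all genes. The shared ZT0 arrays favour such an overlap by themselves, so these counts are not separate evidence. The 343 fell to 243, 127, 78 and 113 without replicates 1, 2, 3 and 4 of ZT0, or by more than 1.5 times for the last 3.

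**Figure D4:**
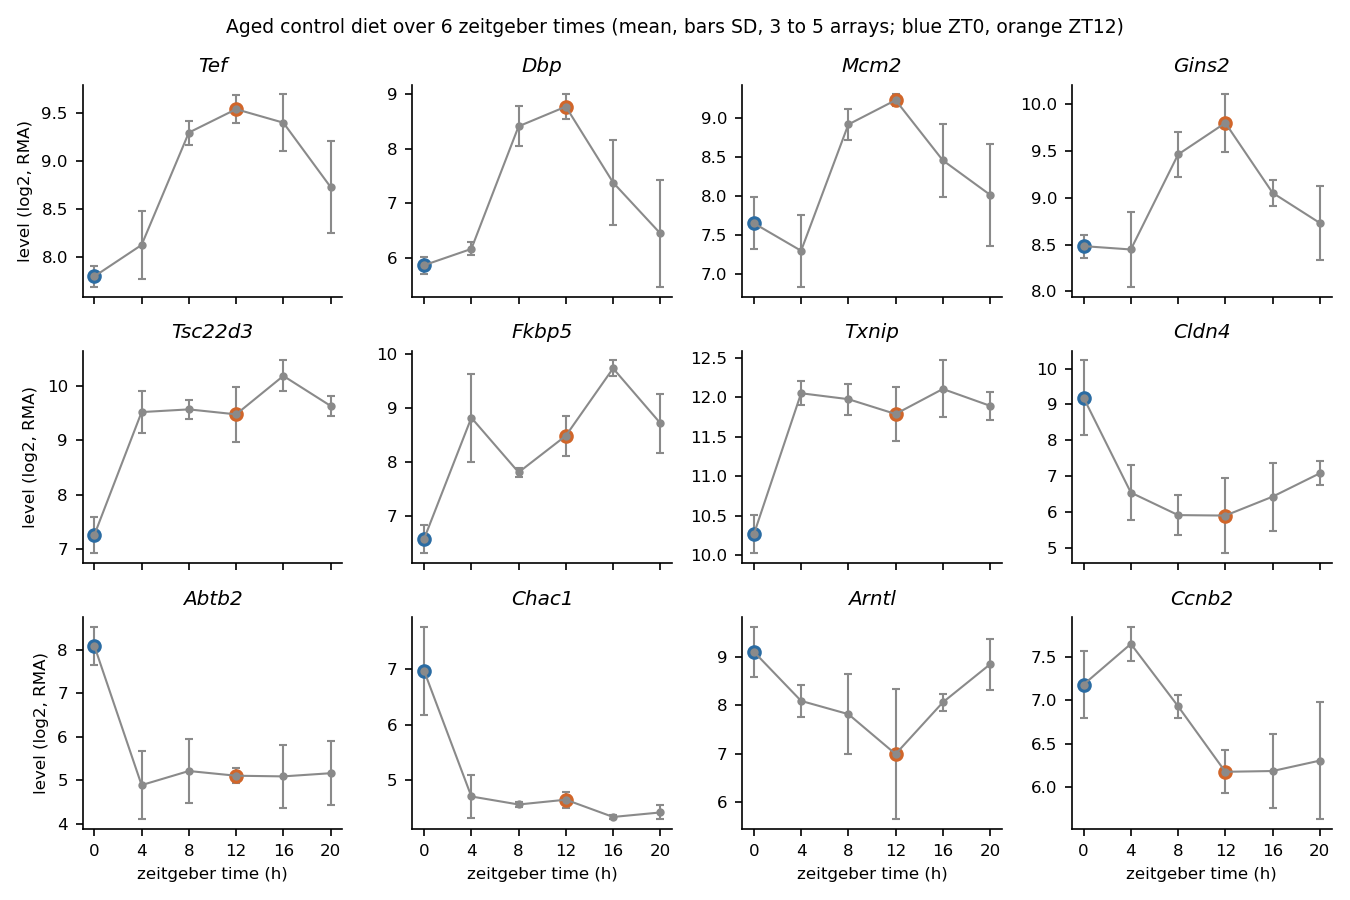
Mean expression level (log2, RMA) with SD at 6 zeitgeber times (h) for 12 genes in aged mice on control diet, 3 to 5 arrays a point, ZT0 ringed in blue and ZT12 in orange. Dbp, Tef, Mcm2 and Gins2 climb to ZT12 and fall back, whereas the ZT0 means of Tsc22d3, Txnip and Abtb2 lie outside the range of their other means, and Chac1 is under the filter level at all times but ZT0.

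The same difference was measured in adult mice on control diet and in aged mice on CR. The arrays are separate, but no label says whether the mice shared collection days. In adult mice 3388 genes were called (25.3%), 2551 higher (19.1%) and 837 lower (6.25%). Of the 423 genes higher in aged controls, 421 (99.5%) had the same sign in adults, against 61.2% of all genes, and 360 were called, which is 85.1% of the 423 and 14.1% of the adult list. Of the 266 lower genes 260 (97.7%, against 38.8% of all genes) had the same sign and 202 were called, 75.9% of the 266 and 24.1% of the adult list. In aged mice on CR 1048 genes were called (7.83%), 672 higher (5.02%) and 376 lower (2.81%). There 406 of the 423 (96%, against 55.3%) and 262 of the 266 (98.5%, against 44.7%) had the same sign, with 180 and 111 called, 42.6% and 41.7% of the aged control lists and 26.8% and 29.5% of the CR lists. No gene was called in opposite directions in either.

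Whether age altered the ZT12 to ZT0 difference was tested directly as an interaction in limma. No gene passed and 965 had an unadjusted p under 0.05. The smallest p belonged to Fbxw9, an F-box protein gene, Lsm7, an mRNA decay and splicing factor gene, and Cox6b2, a subunit of cytochrome oxidase, none past the threshold (adjusted p = 0.559, 0.664 and 0.664). Fbxw9 was at 8.01 and 8.03 at ZT0 and ZT12 in aged mice and at 7.45 and 8.14 in adults (interaction -0.67, SE 0.15). The interaction was 0.00 (SE 0.44) for Dbp, -0.12 (SE 0.27) for Per2, 0.77 (SE 0.45) for Per3, -0.21 (SE 0.42) for Mcm2 and -0.95 (SE 0.41) for Tsc22d3. A p that misses the threshold does not show that the 2 ages are alike. With weights for array quality, whose estimation stopped before it converged, 539 genes passed the test. No gene passed in any other alternative.

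For diet, Sphk2 alone passed, lower on CR (0.00747% of the genes tested). Its ZT12 to ZT0 difference was 3.79 in aged controls and 1.54 on CR, from 7.35 at ZT0 to 8.89 at ZT12, and the interaction was -2.26 (SE 0.45, adjusted p = 0.0363). At an unadjusted p under 0.05 there were 579 genes. The call did not hold with any of the 8 aged control arrays left out (adjusted p from 0.0557 to 0.171), and the mean of both probe sets gave -0.979 (adjusted p = 0.98). Dbp, its neighbour, read 5.87 and 8.77 on control diet and 6.14 and 7.17 on CR, without passing (interaction -1.88, SE 0.43, adjusted p = 0.222). Arntl differed by -2.11 on control diet and -0.44 on CR (interaction 1.67, SE 0.63, adjusted p = 0.973). Per2 differed by 2.03 and 2.04 (interaction 0.01, SE 0.26) and Tsc22d3 by 2.21 and 2.87 (interaction 0.66, SE 0.40), neither past the threshold.

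**Figure D5:**
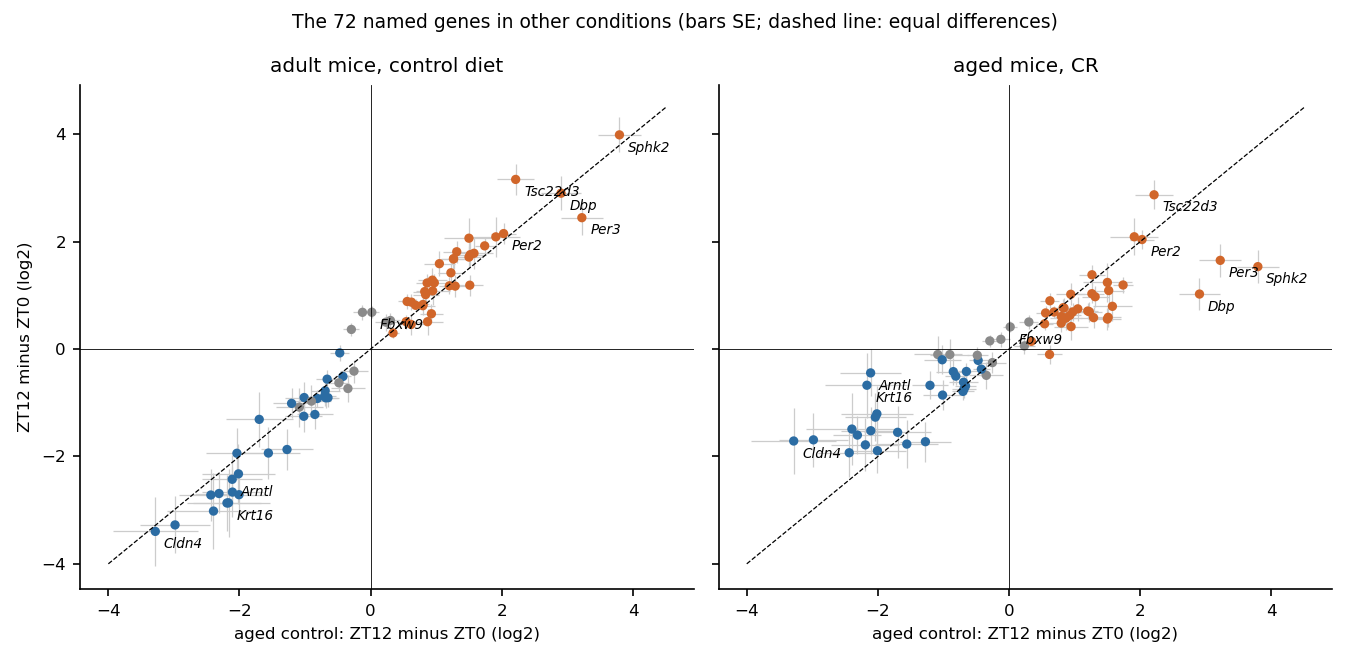
Difference between ZT12 and ZT0 (log2, bars SE) of the 72 named genes in aged controls (horizontal axis) against adult controls (left) and aged mice on CR (right), coloured orange or blue where called higher or lower in aged controls and grey where not. On the left Dbp lies on the dashed line of equal differences and Tsc22d3 and Per3 lie off it (interactions -0.95 and 0.77, not past the threshold). On the right Sphk2 (1.54 on CR against 3.79), Per3 (1.65 against 3.22) and Dbp (1.02 against 2.90) lie below it and Arntl (-0.44 against -2.11) above it. Sphk2 alone passed the diet interaction test, and Per3, Dbp and Arntl did not.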

How the data were processed

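RNA of epidermal stem cells was amplified and hybridised to Affymetrix mouse PM arrays, 1 sample an array. The authors deposited log2 levels from RMA (background correction, quantile normalization and probe set summary; its version is not given in the sources used here), as named in the submitters' processing notes, and no further normalization was applied. Array medians lay between 5.466 and 5.714. Of 45140 probe sets, 28898 had 1 gene symbol, 551 several and 15691 none in the platform annotation. The brightest probe set with 1 symbol stood for a gene, 103 control probe sets were left out, and genes with a mean under the 30th percentile of probe set means (4.735) were not tested. Probe sets near background understate a change, and the number of arrays limits the precision.

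Group means of all 24 groups of age, diet and time were fitted to all arrays of the series with limma 3.58.1 in R 4.3.3, so that all share 1 estimate of the spread. Contrasts were tested with eBayes and adjusted by Benjamini-Hochberg over the 13383 genes. SE and adjusted p come from this fit. The members, lists and rule were chosen with earlier results of these data known. Of 549 list genes 499 were matched by symbol or, for Ccn1 and Ccn2, by synonym, and the others are not analysed here. Named genes are the 12 largest rises and falls past the threshold and all tested core clock activators, repressors and clock output factors. They also include the 3 smallest p among the called members of each other list. For interactions, the genes past the threshold or else the 3 smallest p are named. Other names were chosen after their values were seen. Replicate numbers were not used to pair the samples. Deviations of same-numbered ZT0 and ZT12 arrays correlated at 0.23, 0.0165, -0.0406 and 0.0991, and those of differently numbered arrays at -0.417 to 0.314. The numbers did go with sex, as read from Xist and Y-linked genes. The fit was run on simulated data of the ZT12 to ZT0 comparison (200 changed genes in each of 10 draws over 13383 genes). It recovered 50.4%, 88.4% and 99.1% of changes of 0.6, 1 and 2 log2 units, with 4.98% false calls. The simulated noise was independent between genes and equal in all groups. The real ZT12 arrays varied more than those of ZT0 (root mean square SD 0.253 against 0.184), so these rates need not hold for the data. Alternatives covered the arrays in the fit, normalization, filter, probe set choice, weights, covariates and each array left out.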

Additional observations from a re-analysis of the deposited data

Results flagged for a closer look

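In 144 groups of 4 arrays, made of the 72 named genes at each of the 2 times, the gap of the highest or lowest array to its neighbour was set against the range of the group. It passed the 95% critical value of Dixon's test in 4 groups, and chance gives about 1 in 20, or 7.2. Abtb2 at ZT12 had replicate 4 lowest at 4.85, with the other arrays between 5.16 and 5.21 (ratio 0.847). Atf4 at ZT0 had replicate 1 lowest at 10.77, with the others between 10.91 and 10.94 (0.844). Dst at ZT0 had replicate 3 lowest at 11.34, with the others at 11.54 (0.988). Prim1 at ZT0 had replicate 1 lowest at 8.39, with the others between 8.72 and 8.77 (0.882). In each, all 4 arrays of ZT12 stayed on the same side of all 4 arrays of ZT0.

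Between diets, the difference from ZT0 to ZT12 of the brighter Sphk2 probe set was smaller on CR than on control diet in aged mice. The interaction was -2.26 (adjusted p = 0.0363 in limma, interaction test). This call was lost when any aged control array of ZT0 or ZT12 was left out (adjusted p from 0.0557 to 0.171 in limma). Of the other alternatives, 5 kept the call and 4 lost it. Among the latter, the mean of the Sphk2 probe sets gave -0.979 (adjusted p = 0.98 in limma).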

How the results depend on the processing

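Leaving out each of the 8 aged control arrays of ZT0 and ZT12 in turn gave 158 to 666 higher and 76 to 316 lower genes between these times, 78 to 341 for ZT0 against ZT4 and ZT20 (the last without a ZT12 array, which enters only the shared spread), and 0 for the age interaction, the diet interaction and ZT12 against ZT8 and ZT16. Adult and CR arrays were not left out, nor those of the neighbouring times in these comparisons. Leaving out each of the 16 arrays of ZT4, ZT8, ZT16 and ZT20 gave 15 to 50 called between ZT8 and ZT16 and ZT4 and ZT20 (28 with all arrays). Every such fit rests on fewer arrays. The 8 arrays alone gave 764 higher and 635 lower. The replicate block on these 8 arrays gave 630 higher and 542 lower, although no label pairs the samples by number. Median centring gave 142 lower genes, 0 for diet and 211 for ZT0 against ZT4 and ZT20. Array weights, whose estimation stopped before it converged, gave 1519 higher and 1008 lower, 539 for age, 3 for diet, 1750 for ZT8 and ZT16, 2434 for ZT0 and 5 for ZT12 against its neighbours. Array background as a covariate gave 1032 higher, 411 lower and 1 for ZT12 against its neighbours. The 24 aged control arrays alone gave 17 for ZT8 and ZT16 and 1 for ZT12 against its neighbours, as the mean of probe sets did for the last (1). Diet gave 0 with no filter, with the mean of probe sets and with the Xist covariate. Fbxw9 changed sign when replicate 2 of ZT0 or replicate 4 of ZT12 was left out (range -0.01858 to 0.05206 over the 8 arrays) and after a second quantile normalization (-0.01015). The cause of these changes was not tested. All other named genes kept the direction of their ZT12 to ZT0 difference in each alternative run. With 4 arrays a group, changes of 0.6 were recovered in 50.4% of simulated cases, whose noise was independent between genes and equal in all groups.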
